A study of Drosophila melanogaster with 48 samples.

Results

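The Dpr and DIP genes of Drosophila melanogaster encode 2 families of cell surface proteins of the immunoglobulin superfamily, and their transcript levels were followed here through embryonic neurogenesis. The 32 genes were taken by name, as dpr1 to dpr21 (21 genes) and DIP-alpha to DIP-lambda (11 genes), out of 17257 genes with a count. All 32 passed the filter on low counts that left 17109 genes for testing. Their level is given as TPM, Salmon's transcript abundance scaled for transcript length and for library size, summed over the transcripts of a gene in each library.

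Dpr proteins are named after dpr1, the defective proboscis extension response gene, which is needed for the aversive response to salt in adult flies. DIP stands for Dpr-interacting protein. Each DIP binds a particular subset of Dprs, and the pairs mediate recognition between synaptic partners, survival of some neurons and the layout of connections in the fly visual system, mushroom body and neuromuscular junction. DIP-alpha with its partners Dpr6 and Dpr10, and Dpr11 with DIP-gamma, are among the best described pairs. Individual neuron types in later stages express different combinations of these genes, which a pool of sorted cells cannot show.

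The study dissociated staged embryos, fixed the cells, stained them with antibodies and sorted them by a marker, and each sort gave a marker-positive and a marker-negative population in biological duplicate, that is 48 libraries in 24 groups of 2. The markers were a reporter of the intermediate column driven by ind sequences (Ind) or of the ventral column driven by vnd sequences (Vnd). The others were the proteins Prospero (Pros, neuroblasts and ganglion mother cells), Elav (neurons) and Repo (glia). The 3 early markers were used on embryos of 4-6 h and 6-8 h after egg laying. Neurons and glia were taken from 3 ages, 6-8 h, 8-10 h and 18-22 h. All flies had a yellow-white background. The fly lines were ind_1.4::dsRed for 4-6 h Ind, vnd_743::dsRed for Vnd at both ages, ind_1.4::GFP for 6-8 h Ind and 6-8 h Repo, and vnd-lexA/VC:FNLDD for Pros at both ages, 8-10 h Repo and both 18-22 h sorts. The 8-10 h Elav cells came from the yw line, and the 6-8 h Elav cells from ind_1.4::GFP (replicate 1) and yw (replicate 2), so age and line cannot be told apart between the Elav sorts. Whole embryos were dissociated, and a sorted population holds neurons or glia of all parts of the nervous system. In such pools, more cells that express a gene and more transcript per cell cannot be told apart.

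The libraries held 18120862 to 113452420 estimated reads. The sort markers were where the labels put them: elav measured 709 to 2170 TPM in the 6 Elav-positive libraries against 52.7 to 144 in the 6 Elav-negative libraries, and repo measured 592 to 973 TPM in the 6 Repo-positive libraries against 2.02 to 9.18 in the Repo-negative ones. The libraries differed in how much signal they gave to genes with little transcript in most embryonic cells. The 105 autosomal odorant and gustatory receptor genes (Or and Gr), used here as such a background, had a median of 0.0203 TPM in the lowest library and 20.7 TPM in the highest. The highest single gene among them measured 19.9 to 141 TPM between libraries, so the set is not all silent. The median was above 10 TPM in 7 libraries: 4-6 h Vnd-positive 1, both 6-8 h Vnd-positive libraries, 8-10 h Elav-positive 2, 8-10 h Repo-positive 2, 18-22 h Elav-negative 2 and 18-22 h Elav-positive 1. A member is called above background in a group when both libraries exceed the 90th percentile of the receptor genes in the same library. That percentile ran from 1.34 to 28.3 TPM between libraries. The share of all genes above it was not counted, so these counts describe levels and set the members apart from no other genes. The part of this background in the comparisons below was not tested beyond the fits named with them.

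The members were highest in late neurons. At 18-22 h the median member measured 76.1 and 65.5 TPM in the 2 Elav-positive libraries, against 2.11 and 14 TPM in the Elav-negative ones (replicates 1 and 2, in that order throughout). Summed over the 32 genes, the late neurons held 2890 and 2270 TPM, of which 2030 and 1570 came from the Dprs. In 6-8 h neurons the sums were 581 and 1080 TPM. The receptor genes had medians of 10.4 and 3.31 TPM in the late neurons, so the median member stood well clear of them.

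**Figure D1:**
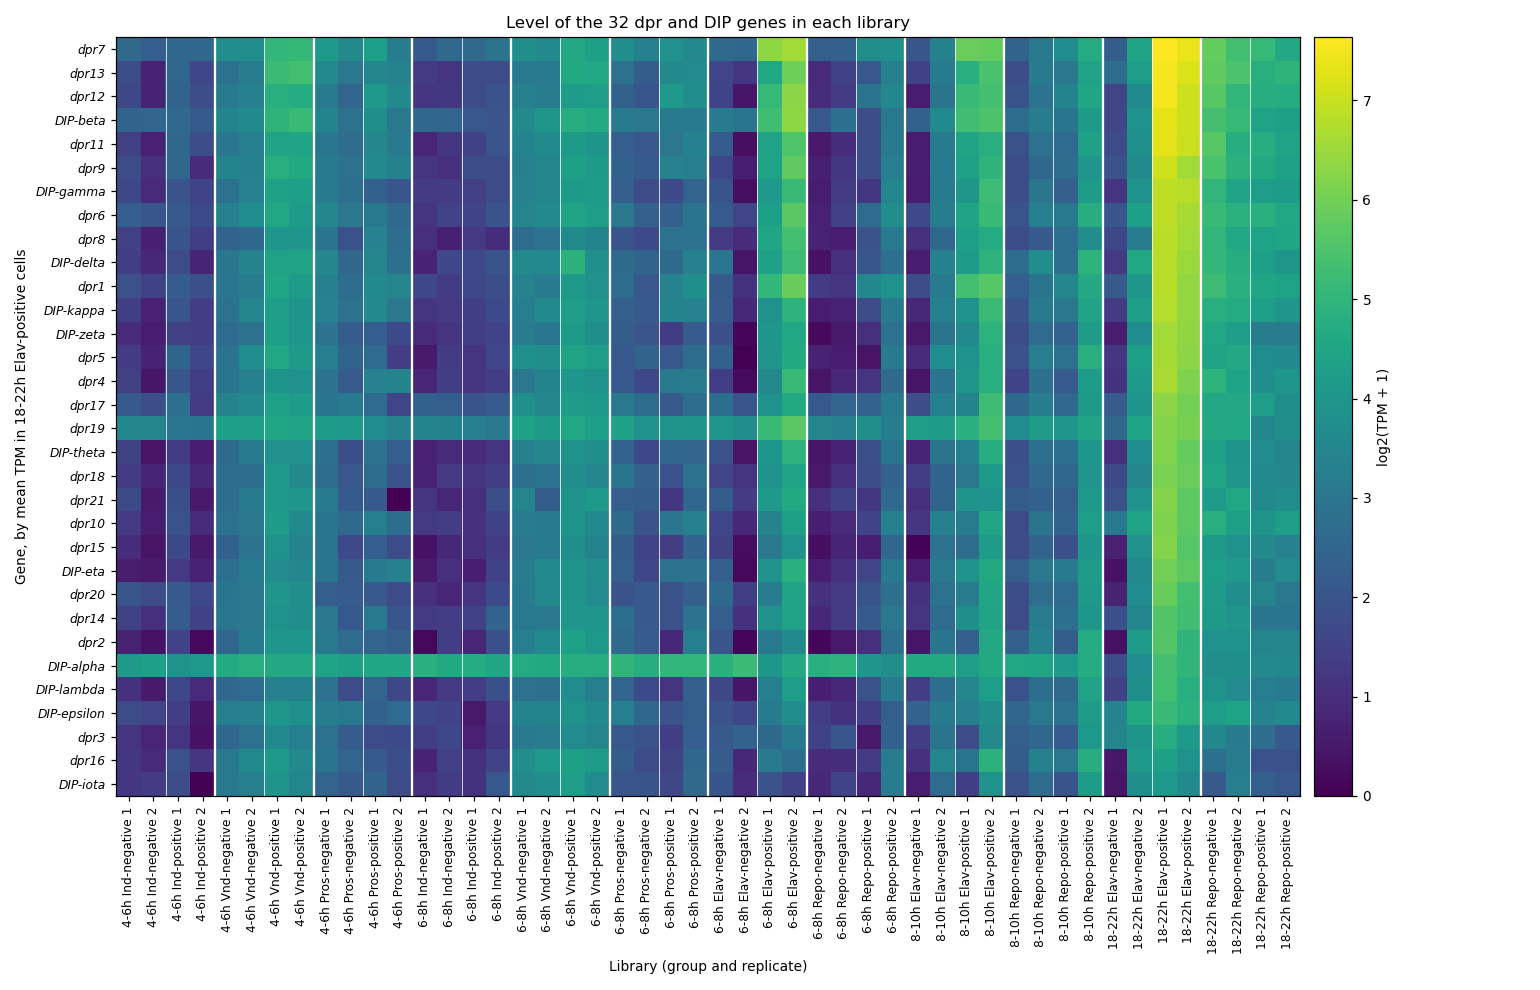
Level of each of the 32 genes (rows, ordered by mean TPM in 18-22h Elav-positive cells) in each of the 48 libraries (columns, grouped by sort), as log2(TPM + 1) on the color scale. The brightest columns are the 2 libraries of 18-22h Elav-positive cells, where dpr7 reached 198 TPM, and the DIP-alpha row is even across the early columns.

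Counted against the receptor genes, 29 of the 32 members were above background in Elav-positive cells at 6-8 h, 19 at 8-10 h and 30 at 18-22 h. The lower number at 8-10 h came with a receptor 90th percentile of 24.9 TPM in replicate 2, while replicate 1 alone had 29 members above its own 90th percentile of 4.07 TPM. Of Repo-positive cells, those of 6-8 h had 5 members above background, those of 8-10 h 0 and those of 18-22 h 26. Among the Ind, Vnd and Pros groups, between 2 (6-8 h Vnd-negative) and 18 (4-6 h Vnd-positive) members were above background. dpr19 and DIP-alpha were above it in all 12 of these early groups, and dpr7 in all but the 6-8 h Vnd-negative cells.

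**Figure D2:**
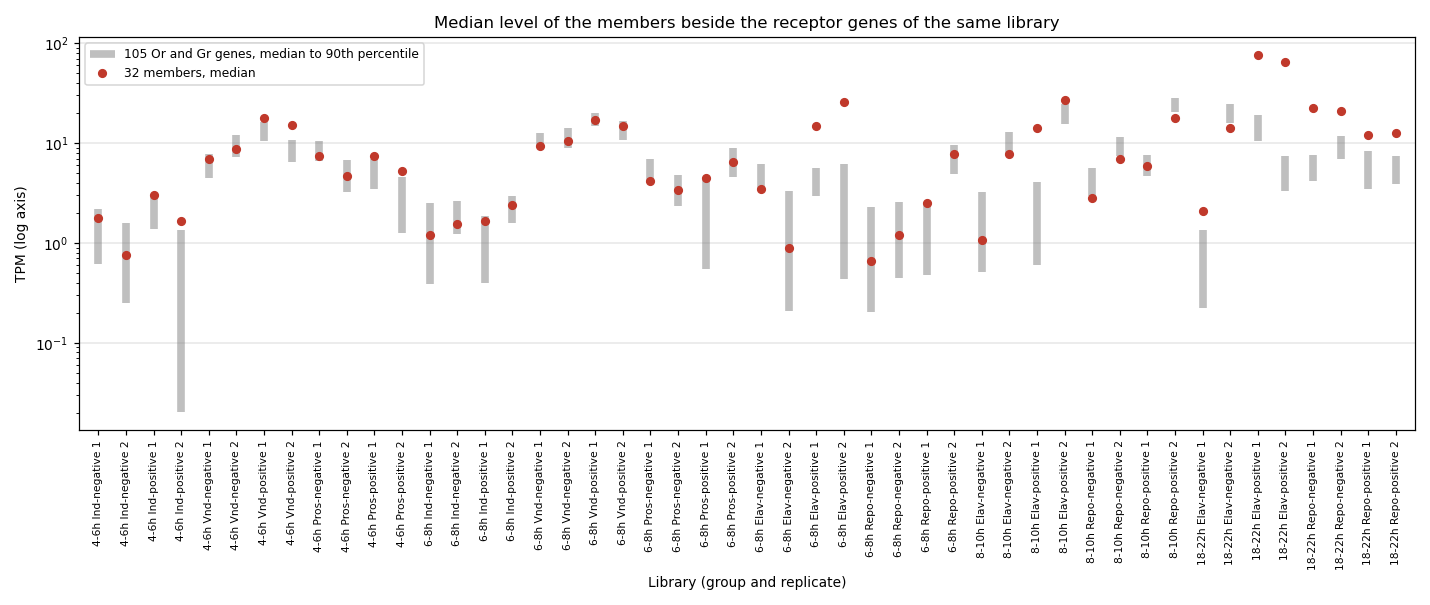
Median TPM of the 32 members (red points) and the span from the median to the 90th percentile of 105 Or and Gr genes (grey bars) in each library, on a log axis. In both libraries of 18-22h and 6-8h Elav-positive cells the members lie above the grey bar, and in 8-10h Repo-positive replicate 2 they lie below it, at 17.7 TPM.

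Members called higher or lower are those with an adjusted p below 0.05 and a log2 fold change beyond 1 in edgeR's quasi-likelihood test over all genes. Whether libraries overlap was read from TPM for the members alone, so those counts have no share of all genes beside them. In neurons at 6-8 h, the earliest age at which Elav cells were sorted, 26 of 32 members (81.2%) were called higher than in Elav-negative cells and 0 lower, while 9.34% of all genes tested were called higher and 7.67% lower. Of the Dprs 17 of 21 rose and of the DIPs 9 of 11. The median log2 fold change was 3.28 over the members and -0.02 over all genes. The 6 members without a call were dpr2, dpr3, dpr5, dpr16, DIP-alpha and DIP-iota. Leaving out 1 library at a time gave between 20 and 27 calls, and a fit on these 4 libraries alone 12.

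The largest difference at 6-8 h was that of dpr12, whose product binds DIP-delta. It measured 33.6 and 78.8 TPM in Elav-positive cells against 1.93 and 0.391 TPM in Elav-negative cells, a log2 fold change of 5.66 (SE 0.75, adjusted p = 1.27e-06 by edgeR). The highest level was that of dpr7, the member on chromosome 4, which binds DIP-kappa. It measured 79.3 and 94.1 TPM against 5.2 and 5.03 TPM, a log2 fold change of 4.03 (SE 0.42, adjusted p = 1.94e-08 by edgeR). Neither gene's groups overlapped. Replicate 2 of the 6-8 h Elav-positive cells was the higher library for 30 of the 32 members, with a median of 25.7 TPM against 14.9 TPM in replicate 1, and the 2 libraries differed in fly line.

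At 8-10 h, 13 of 32 members (40.6%) were called higher in neurons, beside 5.71% of all genes, and 0 were called lower, beside 7.8%. Estimates were above 0 for 31 of the 32. All 13 were also called at 6-8 h and at 18-22 h: dpr1, dpr6, dpr7, dpr8, dpr9, dpr11, dpr12, dpr13, dpr14, dpr17, dpr18, DIP-beta and DIP-kappa. Another 12 members were called at 6-8 h and 18-22 h but not at 8-10 h, among them DIP-gamma (15.6 and 36.9 TPM in neurons against 0.485 and 8.09 TPM) and DIP-delta (17.5 and 29.7 TPM against 0.486 and 8.99 TPM). In both genes both libraries of neurons stood above both Elav-negative ones, whereas the groups overlapped for 7 of the 32 members (dpr2, dpr3, dpr10, dpr15, dpr16, DIP-alpha and DIP-iota). The second library of both 8-10 h groups was high for the members and for the receptor genes (medians 15.4 and 7.69 TPM, against 0.603 and 0.514 TPM in the first). Without the second Elav-negative library 23 members were called and without the first 6. With the receptor level of each library as a covariate 26 were called. The difference between the 8-10 h and the 6-8 h enrichment was called for 0 of 32 members (edgeR; 9 at an unadjusted p below 0.05, each with a lower estimate at 8-10 h), as for 0.00584% of all genes in either direction, so the smaller count does not show that any member was less enriched at 8-10 h.

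The 13 members called at all 3 ages showed a common course in the libraries. dpr1 measured 32.6 and 57.4 TPM in Elav-positive cells at 6-8 h, 38.7 and 49.7 TPM at 8-10 h, and 112 and 82.9 TPM at 18-22 h. dpr13, whose product binds DIP-epsilon and DIP-zeta, measured 22.2 and 61.4, then 26.4 and 42.4, then 183 and 146 TPM. DIP-beta, which has the most Dpr partners of the DIPs considered here, measured 38.3 and 80.4, then 38 and 44.4, then 159 and 132 TPM. The first 2 ages overlapped for these genes and the last stood above both.

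The same order held for the others of the 13. dpr6 measured 18.7 and 50.4 TPM at 6-8 h, 21.1 and 35 TPM at 8-10 h, and 116 and 97.7 TPM at 18-22 h. dpr7 measured 79.3 and 94.1, then 58.7 and 56.4, then 198 and 171 TPM, so that its 8-10 h libraries lay below the 6-8 h ones, without a call. dpr8 measured 21.4 and 40.2, 18.7 and 25.1, and 115 and 93.6 TPM. Apart from dpr7, the first 2 ages overlapped in TPM in these genes, and in all of them the last age stood above both. dpr9 measured 20.5 and 53.2, 19.8 and 30.2, and 135 and 94.7 TPM. dpr11, which binds DIP-beta and DIP-gamma, measured 19.9 and 45, 20.8 and 27.2, and 159 and 129 TPM. dpr12 measured 33.6 and 78.8, 34.6 and 40.7, and 186 and 132 TPM. The lower set was made up of dpr14, dpr17, dpr18 and DIP-kappa. dpr14 measured 14 and 20.2, 13 and 20.9, and 46.1 and 38.1 TPM. dpr17 measured 14.3 and 23.8, 9.98 and 37.5, and 77.9 and 65.5 TPM. dpr18 measured 14 and 20.3, 7.32 and 16.6, and 68.1 and 58.4 TPM. Of these, the 8-10 h libraries of dpr17 were the widest apart. DIP-kappa measured 14.1 and 29.9, 14.1 and 36.1, and 110 and 82.6 TPM.

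At 18-22 h, when the embryonic nervous system is wired and close to hatching, 27 of 32 members (84.4%) were called higher in Elav-positive than in Elav-negative cells and 0 lower, beside 9.09% and 11.8% of all genes. All 32 estimates were above 0, and the libraries did not overlap for 30 members, all but dpr16 and DIP-iota. No share of all genes was counted for this. The 5 without a call were dpr2, dpr3, dpr16, DIP-epsilon and DIP-iota. DIP-beta had the smallest adjusted p (log2 fold change 4.37, SE 0.42, adjusted p = 1.09e-08 by edgeR), with 159 and 132 TPM against 2.03 and 13.9 TPM. The second Elav-negative library had a receptor median of 15.9 TPM and was the higher of the pair for 32 of 32 members. Without it 28 members were called, and without the first Elav-negative library 19. A fit on these 4 libraries alone, which has no other libraries to estimate the spread from, called 0 members and 0 of all genes (lowest adjusted p of a member 0.0702, and 27 of 32 at an unadjusted p below 0.05).

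**Figure D3:**
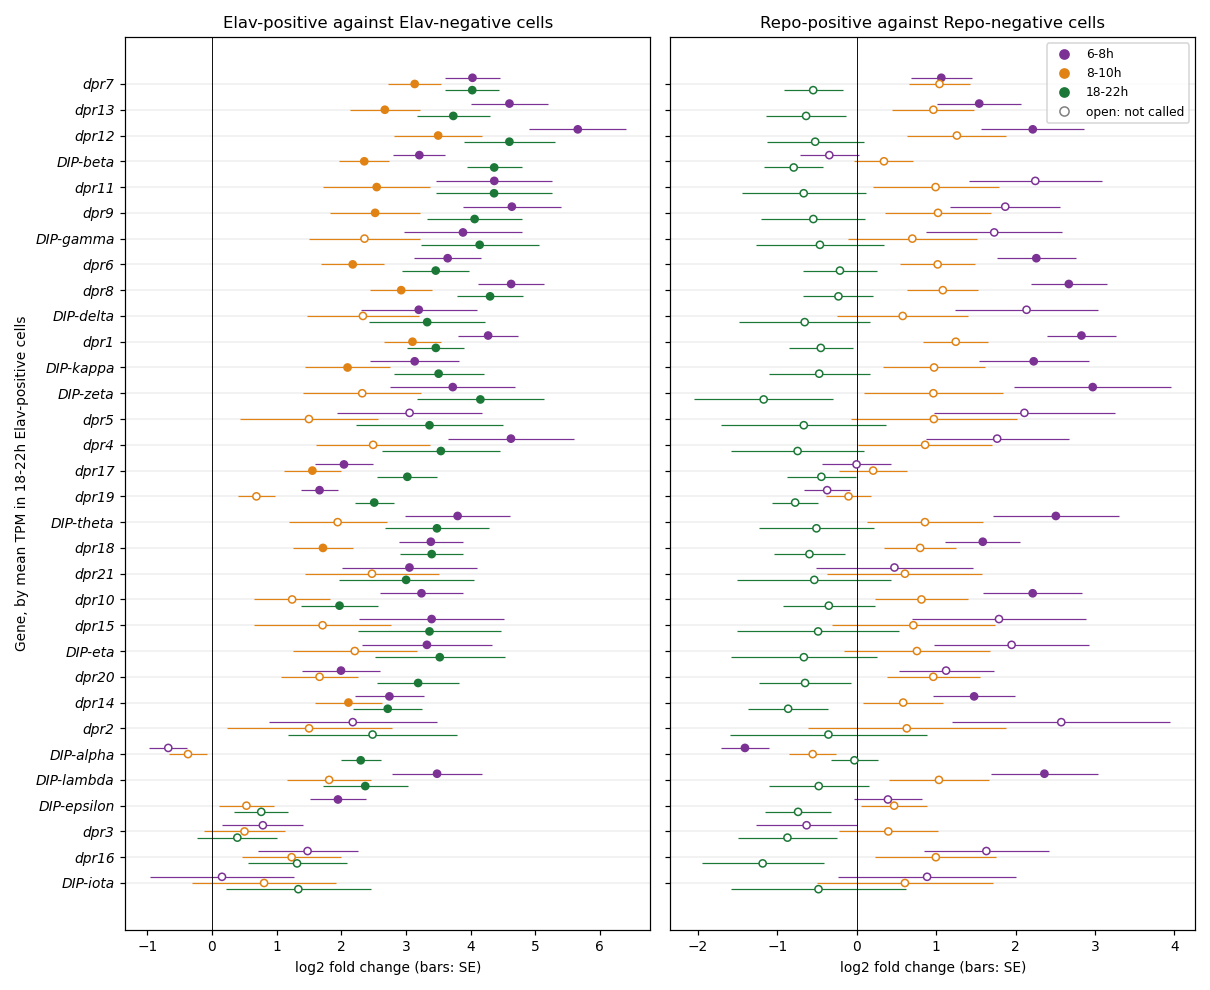
Log2 fold change of marker-positive over marker-negative cells for each member at 6-8h, 8-10h and 18-22h, in the Elav sorts (left) and the Repo sorts (right), with bars of 1 SE and filled points for members called. In the Elav panel nearly all points lie to the right of 0, and in the Repo panel the 18-22h points lie at or left of 0, from -1.18 to -0.03.

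The order of the members in 18-22 h neurons ran from dpr7 (mean 185 TPM, SD 19, n = 2) over dpr13 (164 TPM, SD 26.4) and dpr12 (159 TPM, SD 38.5) to dpr3 (21 TPM, SD 6.86), dpr16 (16.4 TPM, SD 3.72) and DIP-iota (13.6 TPM, SD 3.03). The ranges of neighbors in this order overlapped, except that both libraries of DIP-epsilon (35.1 and 28.5 TPM) were above those of dpr3 (25.9 and 16.2 TPM), so that most adjacent ranks are not set apart by these 2 libraries. Levels at 6-8 h and 18-22 h followed each other over the 32 members (Pearson r = 0.90, Spearman rho = 0.89 on log2(TPM + 1), n = 32 genes that share the same libraries). Gene span did not: the genes extend from 3738 bp (dpr19) to 379081 bp (DIP-lambda), and the log10 span correlated with the log2 ratio between the 2 ages at r = -0.02.

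Between 8-10 h and 18-22 h, members rose in Elav-positive cells. Of the 32, 17 (53.1%) were called higher at 18-22 h and 0 lower, beside 5.33% and 4.25% of all genes, and the libraries did not overlap for 30, all but dpr16 and DIP-iota. dpr18, whose product binds DIP-epsilon and DIP-zeta, had the smallest adjusted p (log2 fold change 2.69, SE 0.47, adjusted p = 0.0004 by edgeR). In Elav-negative cells the same comparison called 1 member higher, DIP-epsilon, and 1 lower, DIP-alpha, beside 6.2% and 4.8% of all genes (edgeR). There 10 members were at an unadjusted p below 0.05, 8 of them higher, and 30 of the 32 estimates were above 0. The median log2 fold change was 0.93 over the members and 0.22 over all genes. Between 6-8 h and 8-10 h 0 members were called in Elav-positive cells in either direction (edgeR; 5 at an unadjusted p below 0.05, each lower at 8-10 h), where 0.0117% of all genes were called in each direction. The count of 17 was 6 to 9 when 1 of the 4 libraries was left out (6 without 18-22 h Elav-positive 2, 8 without either 8-10 h library, 9 without 18-22 h Elav-positive 1), and 0 when the 4 were fitted alone (lowest adjusted p of a member 0.102, and 27 at an unadjusted p below 0.05). Of the 15 genes of the neuronal maturation list, which holds synaptic vesicle, channel and RNA-binding genes, 11 rose over the same interval, with a median log2 fold change of 2.31 against 2.15 for the members. Of the 10 muscle genes 9 rose as well, from a summed 267 to 377 TPM to 1060 to 1630 TPM in Elav-positive cells, and their part in the result was not tested.

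**Figure D4:**
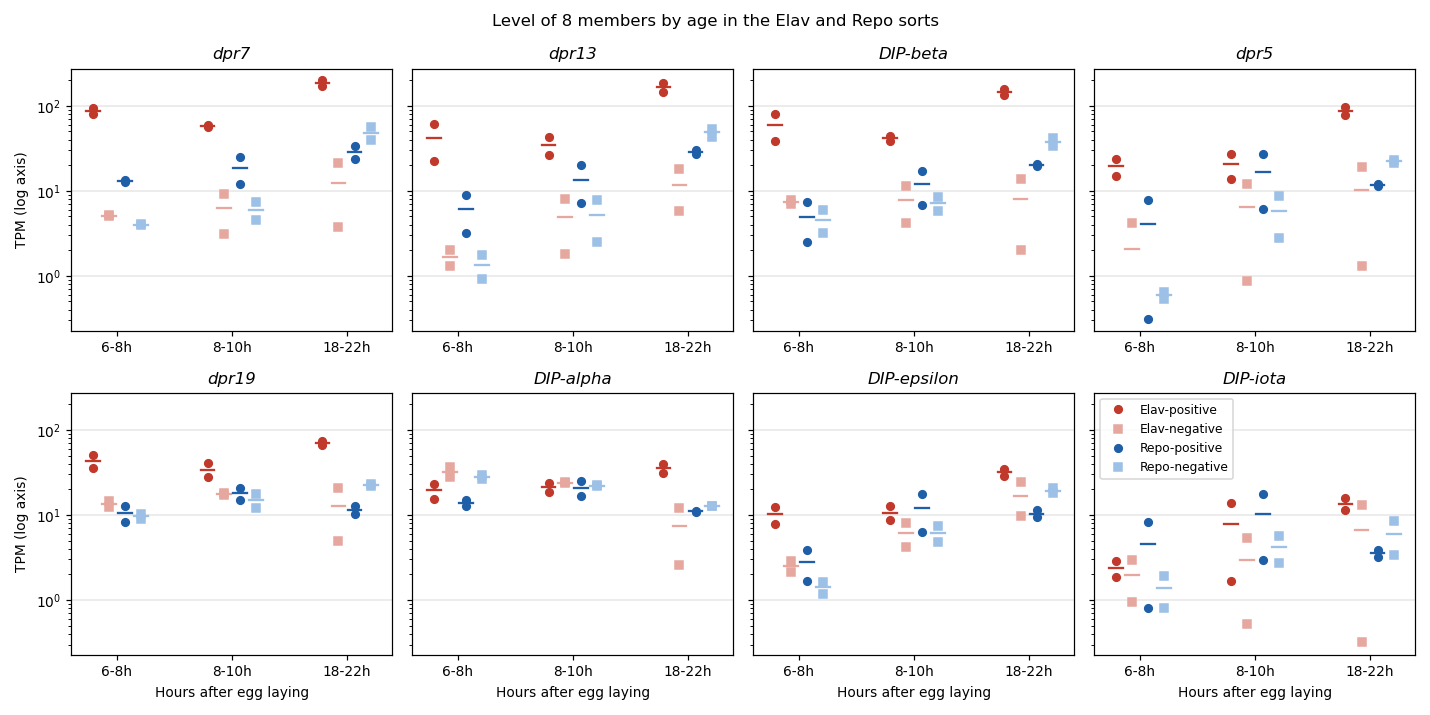
TPM of 8 members in each library of the Elav and Repo sorts at 3 ages, on a log axis, with a bar at the mean of 2 libraries. dpr7, dpr13, DIP-beta and dpr5 are highest in 18-22h Elav-positive cells, DIP-alpha is at 12.6 to 36.2 TPM in the earlier groups shown, and 1 value of 0 TPM (dpr5, 6-8h Elav-negative) lies off the axis.

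Of the 32 members, 26 were first called at 6-8 h and 0 at 8-10 h, and 2 gained their first call in neurons at the last age, dpr5 and DIP-alpha. dpr5, the neighbor of dpr4 on chromosome 3R, measured 14.8 and 23.8 TPM in Elav-positive cells at 6-8 h against 4.14 and 0 TPM in Elav-negative cells, without overlap but with an adjusted p of 0.0598 (edgeR, log2 fold change 3.06, SE 1.13). At 18-22 h it measured 97.5 and 77.9 TPM against 1.3 and 18.9 TPM (log2 fold change 3.37, SE 1.13, adjusted p = 0.0308 by edgeR). The replicate number stands for the fly line in the 6-8 h Elav sort, and with it as a block dpr5 was called at that age (log2 fold change 4.40, SE 1.42, adjusted p = 0.0361 by edgeR). The 2 fold changes were close, and the difference between them was not called, so the first call at 18-22 h is no sign of a later onset. The 18-22 h call was lost without either Elav-positive library or without Elav-negative 1.

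DIP-alpha had another course. In motor neurons of the larva DIP-alpha is known to bind Dpr10 of the muscle. Before 18-22 h it measured 12.6 to 36.2 TPM in all libraries of all sorts, positive and negative alike, whereas the median member was at 0.665 to 10.4 TPM in the negative fractions of these ages. In the 6-8 h Elav sort it measured 15.4 and 23.4 TPM in neurons against 27.7 and 36.2 TPM in Elav-negative cells (log2 fold change -0.68, SE 0.30, adjusted p = 0.129 by edgeR). At 18-22 h it measured 39.5 and 31.0 TPM in neurons against 2.59 and 12.2 TPM, a log2 fold change of 2.30 (SE 0.31, adjusted p = 1.9e-06 by edgeR). The enrichment at 18-22 h exceeded that at 8-10 h by 2.67 (SE 0.42, adjusted p = 0.00161) and that at 6-8 h by 2.98 (SE 0.43, adjusted p = 0.000639), both tested as differences in the same edgeR fit. Among the 32 members these differences were called for DIP-alpha and, against 8-10 h, for dpr19. Of all genes 0.386% exceeded and 0.129% fell short in the difference from 8-10 h, and 0.433% and 0.877% in that from 6-8 h.

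The transcripts of DIP-alpha did not move together. The gene lies on chromosome X at 3507245 to 3571649 (dm6, minus strand), and its annotated transcript RB shares 158 bases of exon with CG2875, a gene on the same strand, so that reads there could be assigned to either. RB held 56.4% of the DIP-alpha level in neurons at 6-8 h and 19.5% at 18-22 h. RC, the longest transcript at 7668 bases, measured 8.47 TPM in neurons at 6-8 h and 23.7 TPM at 18-22 h (means of 2 libraries), and RA was at 0 TPM in 6-8 h neurons and 4.64 TPM at 18-22 h. CG2875 itself measured 28.8 and 29.8 TPM in 6-8 h neurons against 67.4 and 84.9 TPM in Elav-negative cells, and 14.5 and 12.5 TPM in 18-22 h neurons. Counted without RB, a choice made after seeing the data, DIP-alpha kept these calls, and other values moved. The 6-8 h log2 fold change in neurons was -0.04 in place of -0.68. The rise in Elav-positive cells between 8-10 h and 18-22 h, 0.88 without a call over all transcripts, was 1.77 and called (adjusted p = 0.000108 by edgeR). The log2 fold change in neurons was 2.70 at 18-22 h, and the difference from 8-10 h was 2.80. Salmon divides reads among transcripts by a model, and these shares have no test here.

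**Figure D5:**
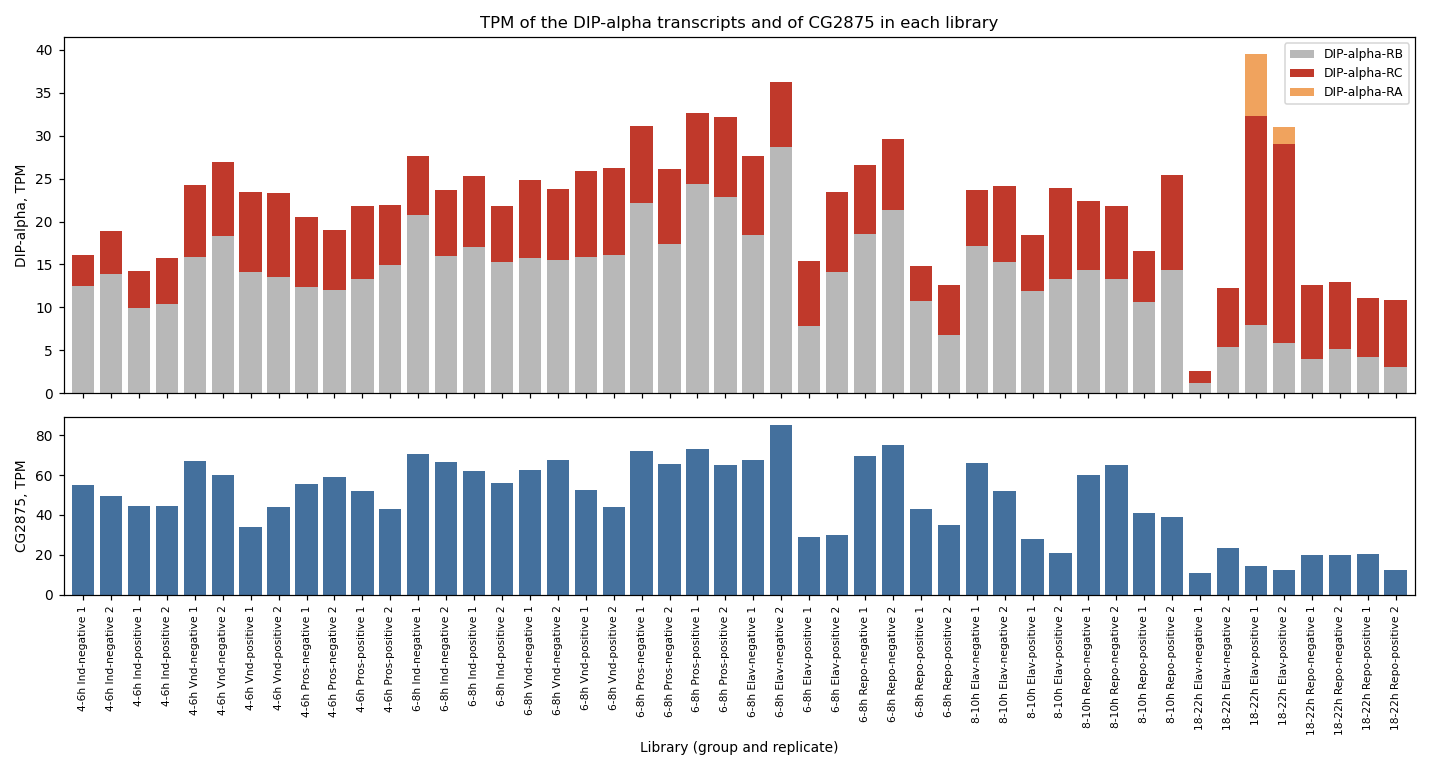
TPM of the 3 annotated DIP-alpha transcripts, stacked (top), and of CG2875, summed over its transcripts (bottom), in each library. Transcript RB makes up most of the bars before 18-22h, and in the 2 libraries of 18-22h Elav-positive cells RC makes up most of them, with RA on top.

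dpr19, a member of compact gene span that shares DIP-epsilon and DIP-zeta as partners with dpr13, was also present early, at 6.75 to 22.7 TPM in the Ind, Vnd and Pros groups. In neurons it measured 35.3 and 50.8 TPM at 6-8 h, 27.6 and 40.7 TPM at 8-10 h and 74.2 and 65.6 TPM at 18-22 h. Elav-negative cells held 14.7 and 12.3, 18.2 and 17.2, and 4.93 and 20.6 TPM at these ages. It was called higher in neurons at 6-8 h and 18-22 h (log2 fold changes 1.66 and 2.51), and the enrichment at 18-22 h exceeded that at 8-10 h by 1.82 (SE 0.41, adjusted p = 0.0304 by edgeR). Its ratio of mean TPM between 18-22 h and 6-8 h neurons, 1.62, was the lowest of the 32, where the median was 3.29.

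In 4 members no call was made in neurons at any of the 3 ages. dpr2 measured 7.54 and 11.5, 4.07 and 23.3, and 47 and 30.2 TPM in neurons at 6-8 h, 8-10 h and 18-22 h, with 0.28 and 17.2 TPM in 18-22 h Elav-negative cells. Its groups did not overlap at 6-8 h and 18-22 h and overlapped at 8-10 h. Without the second 18-22 h Elav-negative library it was called (log2 fold change 5.89). dpr16 measured 7.75 and 5.75, 6.87 and 28.8, and 19 and 13.8 TPM, and was likewise called at 18-22 h without that library (log2 fold change 4.36, with 0.414 TPM in the library that remained). DIP-iota measured 2.88 and 1.85, 1.68 and 13.8, and 15.7 and 11.4 TPM, against 0.324 and 13 TPM in 18-22 h Elav-negative cells, and was called at 18-22 h in that fit too (log2 fold change 4.21). At 18-22 h the result for these genes thus changed with the second Elav-negative library, which is of high receptor level. The Elav-negative library that remained had a receptor median of 0.225 TPM, against 10.4 and 3.31 TPM in the Elav-positive ones. The receptor genes thus differed in the same direction, and their part in these fold changes was not tested. dpr3 differed from them, with 25.9 and 16.2 TPM in 18-22 h neurons and 10.1 and 14.5 TPM in Elav-negative cells. Without the second Elav-negative library its log2 fold change was -0.03. dpr2 and dpr3 were above background in 18-22 h neurons, and dpr16 and DIP-iota were not, since neither passed the 19.2 TPM of replicate 1.

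Of the late Elav-negative libraries, the first had 21 members above the 90th percentile of its receptor genes and the second 0. In the first 18-22 h Elav-negative library, where the receptor 90th percentile was 1.34 TPM, dpr3 measured 10.1, DIP-epsilon 9.61, dpr10 7.42 and dpr13 5.82 TPM, the highest of the 32, and the median member 2.11 TPM. DIP-epsilon was called higher in Elav-negative cells at 18-22 h than at 8-10 h, with 9.61 and 24.1 TPM against 4.25 and 8.03 TPM (log2 fold change 1.55, SE 0.43, adjusted p = 0.0155 by edgeR), although the second library of the later group had a receptor 90th percentile of 24.9 TPM. In neurons DIP-epsilon rose over the same interval, from 8.68 and 12.6 TPM to 35.1 and 28.5 TPM (log2 fold change 1.78, SE 0.43, adjusted p = 0.00628 by edgeR). It was called higher in neurons than in Elav-negative cells at 6-8 h, and at 18-22 h its log2 fold change of 0.76 (SE 0.42) was without a call. dpr10 is known from the larval muscle, and the 18-22 h Elav-negative libraries held 4970 and 4990 TPM summed over the 10 muscle genes listed, against 1060 and 1630 TPM in the Elav-positive ones. Neuronal and blood cell genes rose in Elav-negative cells as well between 8-10 h and 18-22 h. Of the 15 genes of the neuronal maturation list 8 were called higher and 0 lower (median log2 fold change 1.74), with a summed level of 377 to 433 TPM at 8-10 h and 484 to 659 TPM at 18-22 h. Of the 10 muscle genes 8 were called higher and 1 lower, and of the 6 blood cell genes 3 higher and 0 lower, with 1870 to 3160 TPM and 4580 to 12100 TPM summed over the latter at the 2 ages. The part of neurons, muscle, blood cells or any other cell type in these levels was not tested.

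Set beside their known partners, most DIPs and the Dprs they bind were present together in the pooled late neurons. DIP-beta at a mean of 145 TPM stood beside dpr6, dpr8, dpr9, dpr10, dpr11, dpr15 and dpr21 at 60.3 to 144 TPM. DIP-gamma at 114 TPM stood beside dpr11, dpr15, dpr16 and dpr17 at 16.4 to 144 TPM. The 2 DIPs listed with 1 partner were below it, DIP-delta (110.6 and 89.5 TPM) below dpr12 (186 and 132 TPM) and DIP-kappa (110.5 and 82.6 TPM) below dpr7 (198 and 171 TPM). DIP-alpha at 35.3 TPM was below both dpr6 (107 TPM) and dpr10 (61.2 TPM). The 3 DIPs that share dpr1 to dpr5 as partners differed in level: DIP-theta at 63.8 TPM, DIP-eta at 57.9 TPM and DIP-iota at 13.6 TPM. DIP-eta and DIP-theta lie 8344 bp apart on chromosome 2L, and dpr6 and dpr10 lie 8093 bp apart on 3L. In these pools a DIP and a Dpr may come from different cells.

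Whether glia carry these genes was read from the Repo sorts. At 6-8 h, 13 of 32 members (40.6%) were called higher in Repo-positive than in Repo-negative cells and 1 lower, beside 7.36% and 10.4% of all genes. The clearest was dpr1, at 10.9 and 13.9 TPM against 1.52 and 1.2 TPM (log2 fold change 2.83, SE 0.44, adjusted p = 2.67e-05 by edgeR), followed by dpr8, at 2.91 and 7.76 TPM against 0.681 and 0.529 TPM (log2 fold change 2.67, SE 0.48, adjusted p = 0.000171 by edgeR). These 2 kept their call with each library left out in turn and under each other fit tried. The levels were low, and those of the second Repo-positive library were near its receptor 90th percentile of 9.46 TPM, which dpr8 did not reach. The receptor genes differed in the same direction, with medians of 0.479 and 4.94 TPM in Repo-positive and 0.203 and 0.442 TPM in Repo-negative cells. Beyond the fit with the receptor level as covariate, their part in these fold changes was not tested.

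Of the other members called, dpr6 (5.31 and 12.4 TPM), dpr7 (12.7 and 13.4 TPM) and dpr12 (6.63 and 10.5 TPM) passed that percentile in both Repo-positive libraries, as dpr1 did. Their Repo-negative values were 0.622 and 1.73, 3.97 and 4.02, and 0.952 and 1.51 TPM. The fifth gene above background there was DIP-alpha, which was called lower in Repo-positive cells, at 14.8 and 12.6 TPM against 26.6 and 29.6 TPM (log2 fold change -1.41, SE 0.30, adjusted p = 0.00112 by edgeR), a call that was lost without Repo-negative 2 (log2 fold change -1.03) and without Repo-positive 2 (-0.70). Among those called without passing it, dpr10 measured 1.9 and 9.34 TPM against 0.565 and 0.902 TPM. dpr13 measured 3.2 and 8.95 TPM against 0.919 and 1.77 TPM. dpr14 measured 3.47 and 7.15 TPM against 0.825 and 1.5 TPM. In these genes the second positive library was 2 or more times the first, as were its receptor genes. dpr18 measured 2.5 and 4.24 TPM against 0.429 and 1.07 TPM. DIP-zeta measured 1.03 and 6.29 TPM against 0.135 and 0.441 TPM. DIP-theta measured 2.62 and 6.88 TPM against 0.354 and 0.699 TPM. None of these 3 reached 7 TPM in either library. DIP-kappa measured 2.38 and 7.7 TPM against 0.519 and 0.675 TPM, and DIP-lambda 2.73 and 7.65 TPM against 0.559 and 0.794 TPM. The count of 13 became 2 without Repo-negative 1, 8 without Repo-positive 2, 11 without Repo-negative 2 and 15 without Repo-positive 1.

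Neuronal genes moved in the same direction in that sort. Of the 15 genes of the neuronal maturation list 10 were called higher in 6-8 h Repo-positive cells, and their summed level was 819 to 1070 TPM, against 455 to 540 TPM in Repo-negative and 4980 to 7160 TPM in Elav-positive cells. nSyb, the synaptic vesicle protein neuronal Synaptobrevin, measured 45.8 and 38.5 TPM in Repo-positive, 6.16 and 8.54 TPM in Repo-negative and 253 and 548 TPM in Elav-positive cells. In turn, repo measured 77.3 and 48.1 TPM in the Elav-positive libraries of that age. The part of neuronal transcripts in the Repo-positive values of the members was not tested.

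At 8-10 h 0 members were called in the Repo sort in either direction (edgeR; 4 at an unadjusted p below 0.05, each higher), beside 1.8% of all genes called higher and 2.08% lower, and the receptor median of 20.7 TPM in the second positive library exceeded the members' median of 17.7 TPM. At 18-22 h 0 were called too (edgeR; 2 at an unadjusted p below 0.05, both lower), beside 3.22% higher and 2.63% lower, and all 32 estimates were below 0, from -1.18 to -0.03, of which 8 turned to above 0 in at least 1 of the other fits or with a library left out. In TPM, both Repo-positive libraries were below both Repo-negative ones for 30 members. The late Repo-positive libraries nonetheless had 26 members above background, with dpr7 at 33.5 and 23.5, dpr13 at 26.8 and 30.2 and dpr6 at 27.9 and 23 TPM. The same libraries held neuronal transcripts, with nSyb at 185 and 181 TPM and a summed neuronal maturation level of 1800 to 1870 TPM, and the Repo-negative cells held 2460 to 3190 TPM of that list, against 484 to 659 TPM in Elav-negative cells. Between the 2 negative fractions of that age, 9 members were called lower in Elav-negative than in Repo-negative cells and 0 higher (beside 2.12% and 0.0468% of all genes), among them DIP-beta (log2 fold change -2.60, SE 0.39, adjusted p = 8.67e-05 by edgeR). The Repo-negative fraction still holds the neurons, beside other cells. Its median member measured 22.7 and 20.8 TPM, against 76.1 and 65.5 TPM in Elav-positive cells of that age.

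Neurons were next set directly against glia of the same age. At 8-10 h the Elav and Repo sorts came from different fly lines, so cell type and line cannot be told apart there. At 6-8 h the line of Elav-positive replicate 2 (yw) differed from that of the Repo sort, and at 18-22 h both sorts shared a line. At 18-22 h 17 of 32 members (53.1%) were called higher in Elav-positive than in Repo-positive cells and 0 lower, beside 6.06% and 6.2% of all genes. All 32 members stood above without overlap. The ratio of mean TPM ran from 3.05 for DIP-epsilon to 10.6 for DIP-zeta, with a median of 5.74. On the log2 scale the members' median difference was 2.20, and that of the neuronal maturation list was 2.30. At 6-8 h 19 of 32 were called (59.4%, beside 7.8% of all genes) and 0 lower (beside 3.91%), and 30 stood above without overlap, with DIP-beta first (log2 fold change 3.64, SE 0.41, adjusted p = 4.06e-07 by edgeR), at 38.3 and 80.4 TPM in neurons and 2.48 and 7.47 TPM in glia. At 8-10 h 5 were called higher (15.6%, beside 4.51%) and 0 lower (beside 2.37%), namely dpr1, dpr7, dpr8, dpr19 and DIP-beta. The libraries overlapped for 23 of the 32 at that age. Estimates without a call were below 0, that is higher in glia, for DIP-iota at 6-8 h (-0.65) and at 8-10 h for DIP-iota (-0.50), dpr2 (-0.26), dpr3 (-0.22) and dpr16 (-0.06).

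These counts leaned on single libraries. The 18-22 h count was 8 without either Repo-positive library, 9 without Elav-positive 2 and 13 without Elav-positive 1. The 6-8 h count was 6 without Elav-positive 2, 9 without Repo-positive 1, 18 without Repo-positive 2 and 22 without Elav-positive 1. The 8-10 h count was 1 without Elav-positive 1, 2 without either Repo-positive library and 7 without Elav-positive 2.

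The enrichment itself, neurons over their negative fraction less glia over theirs, differed for 23 of 32 members at 18-22 h, each in favor of neurons, beside 6.29% of all genes in favor of neurons and 6.01% in favor of glia. It differed for 6 at 6-8 h (dpr7, dpr12, dpr13, dpr17, dpr19 and DIP-beta, beside 4.97% and 2.27%) and for dpr7 and DIP-beta at 8-10 h (beside 2.22% and 2.15%). DIP-beta and dpr7 were thus called at each of the 3 ages, with differences of 3.55 (SE 0.54) and 2.96 (SE 0.54) at 6-8 h and 5.16 (SE 0.55) and 4.57 (SE 0.55) at 18-22 h.

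In the columns of the neuroectoderm and in neuroblasts, sorted at 4-6 h and 6-8 h, few members were called in the fit of all groups. Other fits called more. In 4-6 h Vnd cells 2 were called higher, dpr13 and DIP-beta (6.25%, beside 0.555% of all genes) and 0 lower (beside 0.129%). dpr13 measured 35.7 and 38.8 TPM in Vnd-positive cells against 6.16 and 8.29 TPM (log2 fold change 2.21, SE 0.53, adjusted p = 0.0402 by edgeR). DIP-beta measured 30.3 and 34.5 TPM against 9.98 and 11.4 TPM (log2 fold change 1.56, SE 0.38, adjusted p = 0.0439 by edgeR). Neither gene's groups overlapped, but both calls were lost with any of the 4 libraries left out. A fit on these 4 libraries alone, with 2 residual degrees of freedom, called 14 members, with 28 of 32 at an unadjusted p below 0.05. DESeq2 called 5. No share of all genes is given beside these counts, so they are not read as a result about the members. In this sort 30 of the 32 members had both positive libraries above both negative ones, a count without a share of all genes. The receptor genes had medians of 10.5 and 6.45 TPM in Vnd-positive and 4.52 and 7.2 TPM in Vnd-negative cells. In the 6-8 h Vnd sort 30 members stood above as well. There the receptor medians were 14.9 and 10.8 TPM in Vnd-positive and 9.04 and 8.9 TPM in Vnd-negative cells. The part of the receptor background in these counts was not tested. At 4-6 h the neuronal maturation list summed to 1960 to 2220 TPM in Vnd-positive and 625 to 638 TPM in Vnd-negative cells.

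In 4-6 h Ind and Pros and in 6-8 h Ind, Vnd and Pros cells 0 members were called in either direction (edgeR; 2, 3, 1, 2 and 7 of 32 at an unadjusted p below 0.05), beside 1.16%, 3.6%, 0.684%, 0.0877% and 2.27% of all genes called higher and 3.33%, 2.18%, 1.65%, 0.0526% and 1.3% lower. In 6-8 h Pros cells DESeq2 called 3 members, the fit with the receptor level as covariate 4 and the fit on those 4 libraries alone 8. These counts, too, stand without a share of all genes. In 6-8 h Pros-positive cells dpr12 came closest by size, at 16.1 and 12.5 TPM against 4.16 and 3.13 TPM (log2 fold change 2.06, SE 0.64, adjusted p = 0.0704 by edgeR). Of the 15 genes of the neuronal maturation list 11 were called higher in that sort and 0 lower, with a median log2 fold change of 1.72. The part of neuronal transcripts in the Pros-positive values of the members was not tested. The neuronal enrichment of 13 members at 6-8 h exceeded their enrichment in Pros-positive cells of the same age (beside 3.2% of all genes, and 1.3% in the opposite direction), among them dpr7 by 3.77 (SE 0.55) and dpr18 by 3.65 (SE 0.66).

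The relatives and partners listed beside the 2 families did not share one pattern. The list holds immunoglobulin genes such as klg, Lac, Ama and wrapper, the motor axon guidance pair beat-Ia and side, and cDIP, whose product binds many Dprs and DIPs. Of its 10 genes, 5 were called higher in 18-22 h neurons (beat-Ia, side, klg, CG7166 and CG34353) and 0 lower, beside 9.09% and 11.8% of all genes. The median log2 fold change over the 10 was 1.19, against 3.38 for the members. In 18-22 h Repo-positive cells Ama, Lac and wrapper, itself a glial marker, were called higher and 0 lower, beside 3.22% and 2.63% of all genes. Of the 32 Dpr and DIP genes 0 were called there.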

How the data were processed

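RNA from 48 sorted populations (24 groups of 2 biological replicates, formaldehyde-fixed cells, rRNA-depleted libraries) was sequenced as 75 bp paired ends. The authors made the deposited files with Salmon 0.8.1 on an index of dm6 with FlyBase 6.15 annotation, which gave each transcript an estimated count, a TPM value and, as an other value, an effective length in bases. The count model of Salmon was stranded. The deposited tables of the authors' comparisons were used for gene positions alone; their fold changes and p-values were not used.

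Estimated counts and TPM were summed per gene over 34428 transcripts, of which 305 matched no gene (0.241 to 0.502% of reads), and counts were rounded. Gene names came from the annotation in the box of the same build (BDGP6). DIP-lambda is placed differently there and in the authors' table, and the other 31 members identically. DIP-alpha shares exons on its own strand with CG2875 and DIP-theta with lncRNA:CR44822. Libraries held 18120862 to 113452420 estimated reads. edgeR 4.0.16 (R 4.3.3) was fitted to 17109 genes kept by filterByExpr, with TMM factors, 1 mean per group and a quasi-likelihood test, adjusted by Benjamini-Hochberg over all genes. A call needed a log2 fold change over 1 in size with an adjusted p under 0.05. All 24 groups shared one estimate of spread, so each p rests on 2 libraries a group and the spread of all. SE is that of the log2 fold change. Whether groups overlap was read from TPM, without the TMM factors, and for the members alone. The script was tested on simulated data.

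Genes named in the text are the members, chosen by name, with the fixed lists of 15 neuronal, 10 muscle and 10 related genes. The members, lists and tests were chosen with earlier results of these data known. Partners are those known from binding studies. Alternatives were other size factors, no filter, DESeq2 1.42.0, length-scaled counts, fits on the compared groups alone, the replicate as a block (in the 6-8 h Elav sort the number stands for the fly line per the labels, and the same-numbered libraries deviated together, correlation 0.523), the receptor level as covariate, limma 3.58.1 on log2(TPM + 1) and log2(TPM + 0.1), each library left out, other receptor thresholds and, added after seeing the data, removal of the 7 libraries of high receptor level and of a DIP-alpha transcript.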

Additional observations from a re-analysis of the deposited data

Results flagged for a closer look

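Enrichments that differed between ages or between cell types by a test of the difference itself in edgeR's quasi-likelihood fit are repeated here. The enrichment of DIP-alpha in Elav-positive cells was 2.67 (log2) greater at 18-22 h than at 8-10 h, and 2.98 greater than at 6-8 h. That of dpr19 was 1.82 greater at 18-22 h than at 8-10 h. The enrichment in the Elav sort exceeded that in the Repo sort for 6 members at 6-8 h, 2 at 8-10 h and 23 at 18-22 h. In the 6-8 h embryo it exceeded that in the Pros sort for 13 members.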

How the results depend on the processing

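Of the 140 calls of members 0 changed sign under any alternative run, whereas counts moved, and the cause was not tested except where the number of libraries sets it. Of these calls, in the sorts, between ages and between neurons and glia, 138 were kept by DESeq2, 140 without a filter on low counts, 134 with length-scaled counts, 135 with median-of-ratios factors, 136 with the receptor level as covariate, 120 and 111 by limma on log2(TPM + 1) and log2(TPM + 0.1), 111 without the 7 libraries of high receptor level and 55 in fits on the compared groups alone, which have 2 residual degrees of freedom. DESeq2 called 5 members in 4-6 h Vnd, 3 in 6-8 h Pros, 21 in 8-10 h Elav, 3 in 8-10 h Repo and 26 between neurons and glia at 18-22 h. Length-scaled counts gave 1 in 4-6 h Vnd and 1 in 6-8 h Pros. Fits on the compared groups alone gave 14 in 4-6 h Vnd, 2 in 4-6 h Pros, 1 in 6-8 h Vnd, 8 in 6-8 h Pros, 12 in 6-8 h Elav, 1 in 8-10 h Elav, 0 in 18-22 h Elav, 0 from 8-10 h to 18-22 h in Elav-positive cells, and between neurons and glia 0 at 8-10 h and 31 at 18-22 h. The receptor covariate gave 4 in 6-8 h Pros, 26 in 8-10 h Elav and 30, 10 and 28 between neurons and glia at 6-8 h, 8-10 h and 18-22 h. On log2(TPM + 1) limma gave 21 in 8-10 h Elav, 1 in 4-6 h Vnd, 5 and 1 in the Repo sorts of 6-8 h and 8-10 h, and 3 and 29 between neurons and glia at 8-10 h and 18-22 h. On log2(TPM + 0.1) it gave 0 in 4-6 h Vnd, 1 in 8-10 h Repo, 6 from 8-10 h to 18-22 h in Elav-positive cells, and 11 and 2 between neurons and glia at 6-8 h and 8-10 h. Without the libraries of high receptor level 1 member was called in 4-6 h Vnd, 4 from 8-10 h to 18-22 h in Elav-positive cells and 2 between neurons and glia at 8-10 h.

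With the replicate number as a block, 27, 21 and 27 members were called in the Elav sorts of 6-8 h, 8-10 h and 18-22 h, 12 in 6-8 h Repo, 2 in 4-6 h Vnd and 0 in the other sorts, and 81 of the 82 calls were kept. Same-numbered libraries had deviations that correlated at -0.552 to 0.722 over the 12 sorts, with 2 pairs each, and apart from 6-8 h Elav nothing in the labels pairs them.

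Leaving out 1 library at a time, which assumes that the lone library of its group varies like the others, gave 0 calls in 4-6 h Vnd, 20 to 27 in 6-8 h Elav, 2 to 15 in 6-8 h Repo, 6 to 23 in 8-10 h Elav, 19 to 28 in 18-22 h Elav and 6 to 9 from 8-10 h to 18-22 h in Elav-positive cells. Between neurons and glia it gave 6 to 22, 1 to 7 and 8 to 13 at the 3 ages.

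Estimates without a call did change sign, in the 18-22 h Repo sort for 8 of 32 members, among them DIP-alpha (0.06 in the fit on the compared groups alone and 0.01 without transcript RB). In the Elav sorts they turned for dpr3, DIP-iota and, at 8-10 h, DIP-alpha. With 1 library left out, DIP-iota ranged from -0.38 to 1.11 in 6-8 h Elav (log2 fold change; below 0 without Elav-negative 2 or Elav-positive 1) and from -0.23 to 2.63 in 8-10 h Elav (below 0 without Elav-positive 2). dpr3 ranged likewise from -0.26 to 1.29 in 8-10 h Elav (below 0 without Elav-positive 2) and from -0.027 to 1.07 in 18-22 h Elav (below 0 without Elav-negative 2). Without the libraries of high receptor level DIP-iota was at -0.58 in 8-10 h Elav, and dpr3 at -0.57 there and at -0.061 in 18-22 h Elav, where the receptor covariate gave -0.12.

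The background sets which low levels can be read. With the maximum of the receptor genes as the threshold, 1 member was above it in 6-8 h, 0 in 8-10 h and 12 in 18-22 h Elav-positive cells, and 0 in 6-8 h and in 18-22 h Repo-positive cells. With their median as the threshold, 27 were above it in 6-8 h and 10 in 8-10 h Repo-positive cells.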
